A study of Mus musculus with 11 samples.

Results

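The 32 genes described here encode enzymes, carriers and transporters of mitochondrial and peroxisomal fatty acid oxidation. They were taken by symbol from the table of the study, which held 23420 genes, and each of the 32 symbols matched 1 row. All 32 passed the filter on low values (a mean of at least 10 over the libraries), as did 12976 genes in all. Heart RNA was sequenced in 11 mouse libraries, made from 400 ng of total RNA each, to study how endothelial Cd36 affects lipid and glucose metabolism. Cd36 encodes a membrane protein that takes up fatty acids. The groups were Control (2 libraries, with no Cre named), EC KO (3 libraries, endothelial deletion through Tie2-cre), CM KO (3 libraries, cardiomyocyte deletion through MHC-cre, labelled "MHC cd36 KO") and Total KO (3 libraries, with no statement of how the deletion was made). Every library, Control included, carries 1 strain entry, a cross between mice with loxP sites in Cd36. Age, sex and littermate status are not given in the sources used here, and nothing says whether 1 library stands for 1 animal, so a p-value here speaks of library spread, which may be technical. Tie2-cre is known to act in endothelial and also in blood cells, and MHC-cre expresses Cre in cardiomyocytes. None of the 4 groups is labelled as a Cre-only control.

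Fatty acids enter the mitochondrion as carnitine esters, made by carnitine palmitoyltransferase on the outer membrane and turned back to acyl-CoA on the inner membrane. There, each round of beta-oxidation runs through an acyl-CoA dehydrogenase, a hydratase, a hydroxyacyl-CoA dehydrogenase and a thiolase, and the electrons of the first step pass through the electron transfer flavoprotein to the respiratory chain. Double bonds of unsaturated chains are handled by added isomerases and reductases, and very long chains are first shortened in peroxisomes. The adult heart is known for drawing most of its energy from this pathway.

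The promoters of these genes are shown because most of the genes differed in 1 direction. RefSeq windows of 300 bases (250 before the start site and 50 after it, build GRCm38.p6) matched 25 of the 32 genes, with 26 windows. 4 motifs were searched on both strands in these and in all 32851 windows of the table. The element of the estrogen-related receptors, TNAAGGTCA, was in 0 member windows and in 1.28% of all windows. The direct repeat bound by the PPAR receptors, AGGTCA repeated after a gap of 1 base, was in 0 member windows and in 0.0396% of all windows. The nuclear receptor half-site AAGGTCA, which the first element contains, was in the window of Acadm and in 4.72% of all windows. The element of NRF1, a regulator of genes for mitochondrial proteins, is GCGCA, then any base, then GCGC. It was in 4 of the 26 member windows and in 4.6% of all windows. Those 4 belong to Abcd3, Etfb, Etfdh and Slc22a5 (16% of the genes matched), and the second window of Abcd3 held 0 matches. Any link of these matches to the differences below was not tested. A match describes letters only, and the absence of one says nothing of the factor. Below are 3 windows with the NRF1 element and the window of Acadm, each 5′ to 3′ on the strand of the gene, with the match in capitals. In them, the first base of the match lies at -128 from the start site for Etfdh (window at chr3:79628718-79629017, minus strand), at -11 for Etfb (chr7:43443822-43444121, plus strand), at -60 for Abcd3 (chr3:121815253-121815552, minus strand) and at -249 for Acadm (chr3:153944594-153944893, minus strand). The capitals of Abcd3 and Acadm hold the motif on the other strand.
Etfdh: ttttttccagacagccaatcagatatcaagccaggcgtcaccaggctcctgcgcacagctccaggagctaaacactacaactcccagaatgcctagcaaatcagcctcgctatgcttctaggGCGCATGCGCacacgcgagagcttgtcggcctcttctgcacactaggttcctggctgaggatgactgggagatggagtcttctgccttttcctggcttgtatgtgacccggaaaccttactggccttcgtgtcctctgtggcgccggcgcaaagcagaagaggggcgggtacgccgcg
Etfb: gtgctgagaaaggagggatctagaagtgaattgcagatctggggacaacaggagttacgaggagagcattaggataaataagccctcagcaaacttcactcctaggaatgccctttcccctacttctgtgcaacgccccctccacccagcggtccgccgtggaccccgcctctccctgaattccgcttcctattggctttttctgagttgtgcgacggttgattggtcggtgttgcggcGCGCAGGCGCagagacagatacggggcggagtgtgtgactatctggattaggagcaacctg
Abcd3: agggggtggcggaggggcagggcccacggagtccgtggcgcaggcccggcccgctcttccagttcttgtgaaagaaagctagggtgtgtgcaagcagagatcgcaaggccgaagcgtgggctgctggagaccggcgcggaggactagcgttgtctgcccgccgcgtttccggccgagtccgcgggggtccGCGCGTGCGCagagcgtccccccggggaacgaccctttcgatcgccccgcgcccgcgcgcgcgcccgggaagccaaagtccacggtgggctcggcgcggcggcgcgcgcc
Acadm: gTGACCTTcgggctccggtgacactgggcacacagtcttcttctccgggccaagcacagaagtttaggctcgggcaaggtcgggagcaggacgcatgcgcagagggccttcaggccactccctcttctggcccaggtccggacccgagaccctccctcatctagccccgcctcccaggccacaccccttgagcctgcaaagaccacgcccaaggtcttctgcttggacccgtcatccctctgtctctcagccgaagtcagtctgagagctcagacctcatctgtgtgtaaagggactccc

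Hadha and Hadhb, the subunits of the trifunctional protein, lie head to head on chromosome 5 with RefSeq start sites 273 bases apart. The GENCODE models begin closer together, at 30155162 for Hadha and 30155248 for Hadhb. Their windows (chr5:30154931-30155230, minus strand for Hadha and chr5:30155003-30155302, plus strand for Hadhb) share 228 bases, given in capitals on the strand of each gene.
Hadha: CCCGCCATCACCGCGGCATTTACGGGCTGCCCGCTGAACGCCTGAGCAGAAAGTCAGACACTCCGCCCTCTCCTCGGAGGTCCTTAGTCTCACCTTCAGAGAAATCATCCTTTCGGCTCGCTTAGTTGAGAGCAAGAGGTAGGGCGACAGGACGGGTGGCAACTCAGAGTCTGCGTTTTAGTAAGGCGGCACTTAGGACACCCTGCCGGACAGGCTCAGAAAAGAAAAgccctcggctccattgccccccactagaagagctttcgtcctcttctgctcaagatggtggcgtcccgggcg
Hadhb: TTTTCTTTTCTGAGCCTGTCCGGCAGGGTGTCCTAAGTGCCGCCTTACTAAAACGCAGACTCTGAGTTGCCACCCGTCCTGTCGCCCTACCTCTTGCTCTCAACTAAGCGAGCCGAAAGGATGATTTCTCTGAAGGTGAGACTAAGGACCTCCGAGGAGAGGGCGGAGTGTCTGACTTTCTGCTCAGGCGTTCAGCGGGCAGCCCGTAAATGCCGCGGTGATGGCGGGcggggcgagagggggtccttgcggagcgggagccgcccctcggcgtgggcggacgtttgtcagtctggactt

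Recovered reads ran from 2268403 in EC KO replicate 1 to 20105673 in CM KO replicate 2, and 14031 to 16755 genes stood above 0. Cd36 itself read 44530 and 35425 in the Control libraries, 30308, 27804 and 25758 in those of EC KO, 15792, 21610 and 21363 in those of CM KO, and 18847, 23452 and 21266 in those of Total KO. All 9 knockout libraries lay below both Control libraries, and only the fall in CM KO passed (-1.03 ± 0.17, adjusted p = 0.00863 by limma, against 0.298 in EC KO and 0.0809 in Total KO). The libraries labelled Total KO kept 53.0% of the Control level and were not lower in Cd36 than CM KO (Total KO minus CM KO 0.12 ± 0.15, adjusted p = 0.638 by limma), so Cd36 reads do not bear out a deletion in more cells there. Which part of Cd36 was deleted is not given in the sources used here, and EC KO, CM KO and Total KO stand throughout for the libraries labelled so, with every direction for Total KO resting on that label. Label numbers fall in 3 separate runs, one holding CM KO, one EC KO with Control and one Total KO, so run and group cannot be told apart in any comparison but that of EC KO with Control. Throughout, values are the authors' normalized read counts in replicate order, differences are log2 with SE from 1 limma fit to all libraries, and "passed" means a limma p under 0.05 after Benjamini-Hochberg adjustment over all 12976 genes. The 3 comparisons with Control share its 2 libraries.

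Markers of other cell types differed between the groups. All 12 cardiomyocyte markers were tested, and their summed value was 1466943 to 1472434 in Control, 1551369 to 1666690 in EC KO, 978611 to 1353646 in CM KO and 1538899 to 1652926 in Total KO. In CM KO against Control, 11 of the 12 had negative differences (median -0.37), and the 1 that passed was Myh7, the slow myosin heavy chain, which rose (2.27 ± 0.38, adjusted p = 0.00971 by limma). Fibroblast markers summed to 19657 to 20473 in Control and 30484 to 75557 in CM KO, and 6 of 10 rose. Macrophage markers summed to 5245 to 5563 in Control and 9690 to 17864 in CM KO, and 10 of 10 rose. Among all genes tested, 3.29% rose and 2.4% fell in CM KO against Control. In EC KO, fibroblast sums were 16178 to 18858 and macrophage sums 4801 to 5567; in Total KO they were 16960 to 21370 and 4898 to 6776. None of the fibroblast, macrophage, endothelial or cardiomyocyte markers was at 0 in every library. Endothelial markers summed to 19154 to 19998 in Control, 21654 to 24288 in EC KO, 16439 to 17390 in CM KO and 18847 to 19190 in Total KO. Against Control, 0 of 10 passed in any knockout (6, 1 and 0 at an unadjusted p under 0.05 in EC KO, CM KO and Total KO). The shares of all genes that passed were 0.316%, 5.7% and 0.0848% in the same order, so 0 of 10 lies near them. The atrial list summed to 6160 to 10365 in Control and 106277 to 216188 in CM KO mainly through Nppa, a natriuretic peptide gene. Of 4 atrial markers tested, 2 rose in CM KO against Control, Nppa (4.14 ± 0.38, adjusted p = 0.00109 by limma) and Mybphl (4.57 ± 0.75, adjusted p = 0.00882 by limma), which read 2.33 and 23.9 in Control and 164.5 to 266.9 in CM KO. Myl4 did not pass (-0.04 ± 0.55), and Myl7 and Sln stayed at or below 31.8 and 12.4. Among 8 adipocyte markers, Lep was at 0 in every library and Adipoq at or below 5.01. The 1 that was tested, Cidea, which encodes a lipid droplet protein, read 374.6 to 695.8; it was higher in CM KO than in EC KO (0.68 ± 0.11, adjusted p = 0.0023 by limma) and lower in Total KO than in CM KO (-0.47 ± 0.11, adjusted p = 0.0169 by limma). Of 5 erythroid genes, the hemoglobin genes Hba-a1 and Hba-a2 were listed at 0 in every library, whereas the beta-globin gene Beta-s read 234.5 to 1621 and Alas2, which encodes the heme synthesis enzyme of red cells, 0 to 115, both highest in Control replicate 1. Beta-s and Alas2 passed in no comparison. The part of these cell markers in the results below was not tested beyond a rescaling to the cardiomyocyte sum, and in heart pieces fewer cells of a type and less RNA per cell cannot be told apart.

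Fatty acid oxidation genes were lowest in the hearts labelled as cardiomyocyte knockouts. The F test over the 4 groups called 20 of the 32 genes (62.5%), against 14.3% of all genes tested. In CM KO against Control, 17 of 32 fell (53.1%) and 0 rose, where 5.7% of all genes passed, 2.4% as lower and 3.29% as higher. The median difference of the 32 was -0.61, and that of all genes was -0.0042. In 22 of the 32 genes, the 3 CM KO libraries lay below all 8 others (68.8%, against 7.85% of all genes tested). Ehhadh had the largest difference (-1.50 ± 0.41) but did not pass, and was followed by Ech1 (-1.19 ± 0.24), Eci1 (-1.10 ± 0.17) and Hadh (-0.94 ± 0.18), which fell. The sum of the 32 genes was 273636 to 300658 in Control and 134114 to 200715 in CM KO, 61.0% of Control. CM KO replicate 1 had the lowest value of the 3 CM KO libraries in 28 of the 32 genes; it also had the lowest cardiomyocyte sum and the highest fibroblast and macrophage sums. Without it, 16 genes fell and the median difference was -0.48. Without Control replicate 1, which leaves 1 Control library assumed to vary like the other groups, the median was -0.63 and 0 of the 32 passed (24 at an unadjusted p under 0.05). Without Control replicate 2, 11 passed. A fit to the 5 libraries of the 2 groups alone called 0 (26 at an unadjusted p under 0.05), whereas edgeR and DESeq2 on recovered reads called 20 and 26. The share of all genes that passed in these alternative fits is not given here, so their counts describe the members alone.

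**Figure D1:**
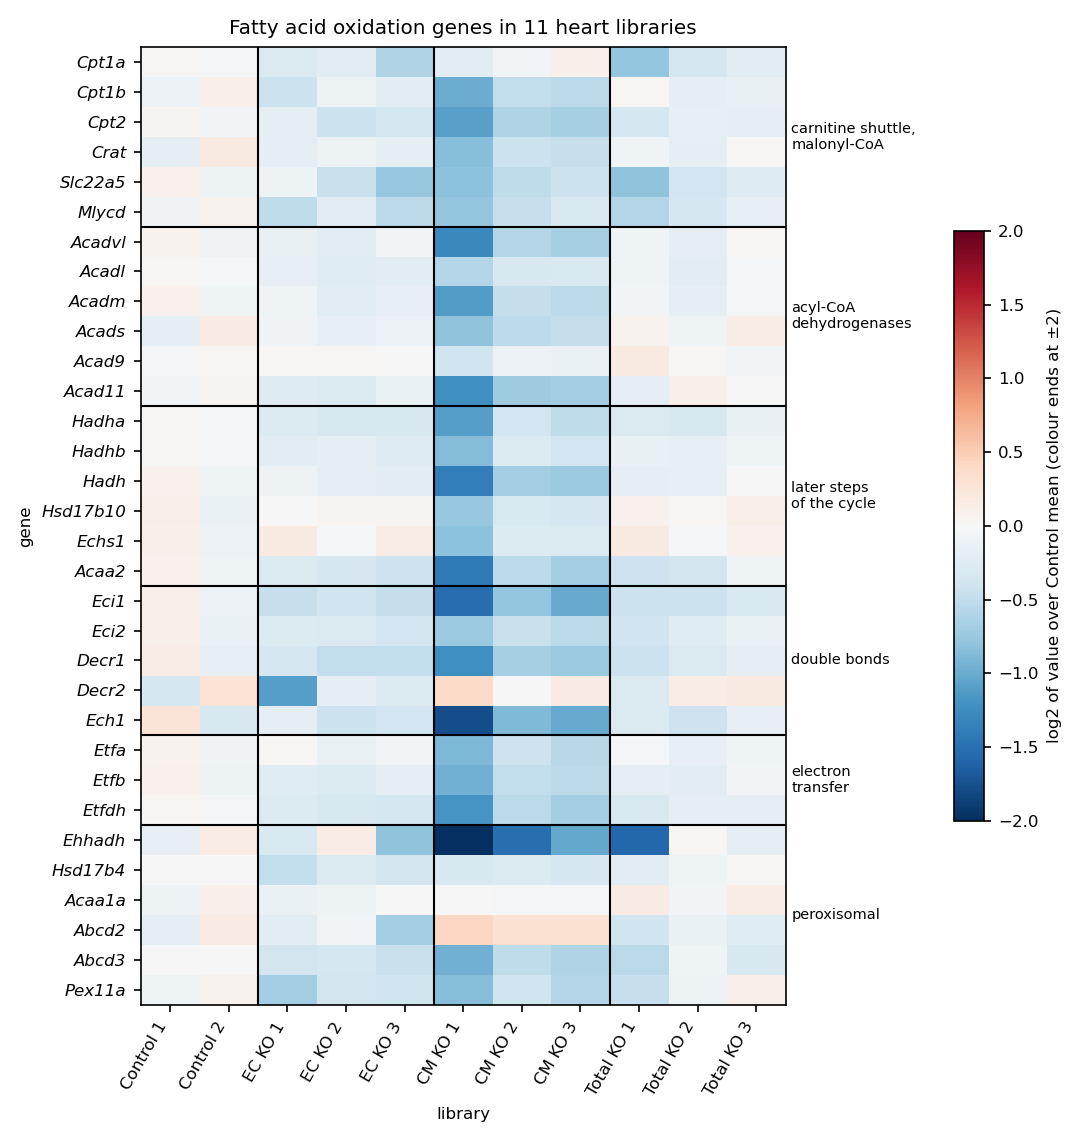
Heatmap of the 32 fatty acid oxidation genes (rows, grouped by role) in 11 libraries (columns), coloured by log2 of the value over the Control mean and ending at ±2. The CM KO columns are blue in most rows, deepest in CM KO replicate 1, while Abcd2 is red there and Acaa1a is near white.

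In EC KO, 0 of the 32 genes passed against Control by limma or edgeR, with 9 at an unadjusted p under 0.05, and 1, Hsd17b4, passed by DESeq2 (named after its value was seen; 0.316% of all genes passed by limma, 0.146% as lower). Differences ran from -0.49 to 0.10 with a median of -0.30, and 29 were negative. The EC KO libraries lay below both Control libraries in 18 genes (56.2%, against 13.2% of all genes) and above both in 0 (12% of all genes). In Total KO, 0 of 32 passed against Control by limma, edgeR or DESeq2 (6 at an unadjusted p under 0.05 by limma; 0.0848% of all genes passed, 0.0617% as higher). The median was -0.14, 26 differences were negative, and the Total KO libraries lay below both Control libraries in 13 genes (40.6%, against 12.8% of all genes). Between Total KO and EC KO, 0 of 32 passed by limma, edgeR or DESeq2 (2 at an unadjusted p under 0.05 by limma; 0.0385% of all genes passed), and the differences ran from -0.26 to 0.53 with a median of 0.06. EC KO replicate 1 holds the fewest reads, and without it 0 genes passed against Control (median -0.27).

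Compared directly, 27 of the 32 differences between CM KO and EC KO were negative, and 29 of those between Total KO and CM KO were positive. Against EC KO, 15 genes were lower in CM KO and 1, Abcd2, was higher, where 19.1% of all genes passed (8.72% as lower and 10.4% as higher). The median of the 32 genes was -0.43, and it became 0.0024 on the scale of cardiomyocyte markers given below. Total KO had 17 genes higher than CM KO and 1, again Abcd2, lower, with a median of 0.52, where 16.4% of all genes passed (8.2% in each direction). In both comparisons, cell markers also differed, with 9 of 10 fibroblast and 10 of 10 macrophage markers higher in CM KO. Of 12 cardiomyocyte markers, 4 were lower and 1 higher in CM KO than in EC KO (median -0.45). Total KO had 2 of them higher and 1 lower than CM KO (median 0.43). Of 10 endothelial markers, 7 were lower in CM KO than in EC KO, and 1 was higher in Total KO than in CM KO. Without EC KO replicate 1, CM KO and EC KO differed in 9 genes, and without Total KO replicate 3, Total KO and CM KO differed in 7. Leaving out the replicates 1 of the 3 knockouts together gave 5 and 11. The shares of all genes above belong to the fit with all libraries. Those of the fits with libraries left out are not given here, so their counts describe the members alone.

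**Figure D2:**
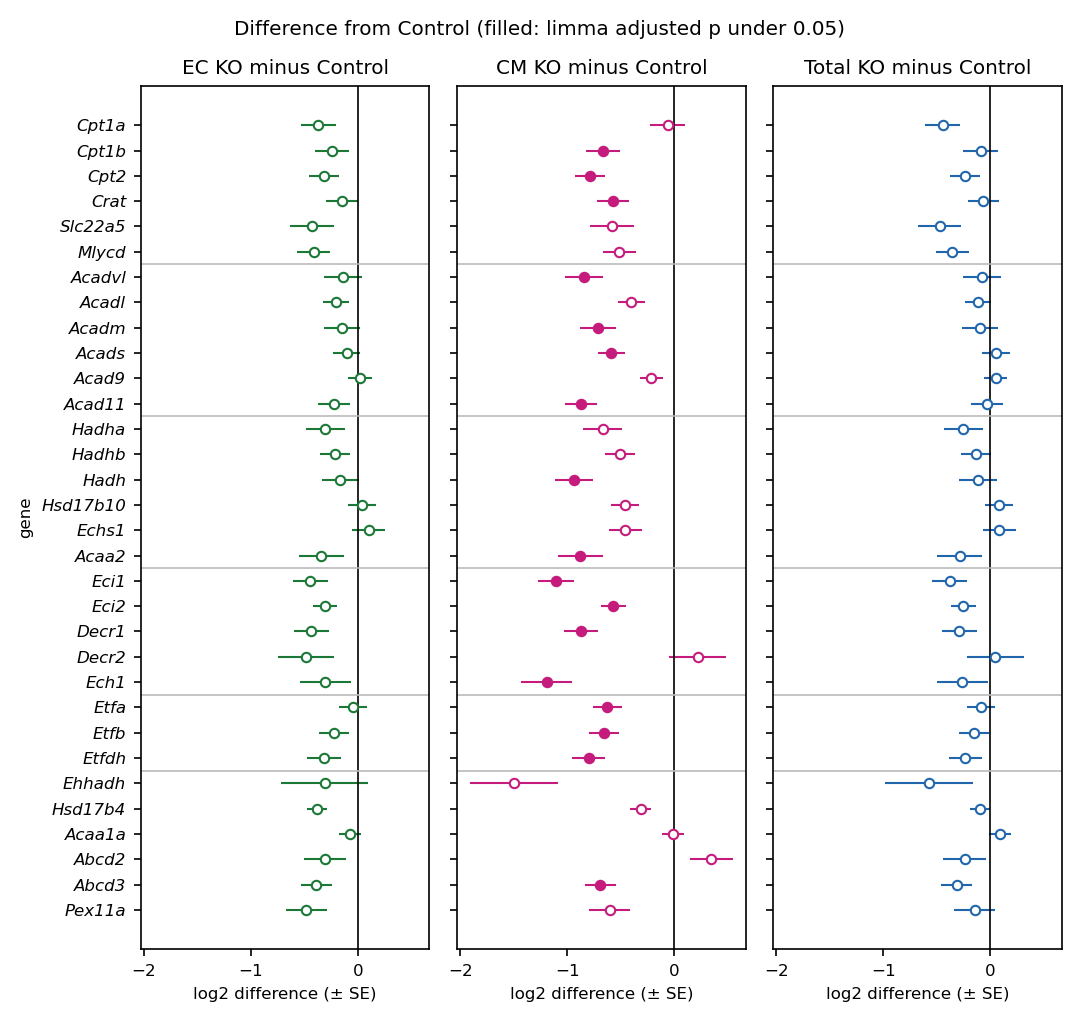
Difference of each knockout from Control (log2, points, with SE as bars) for the 32 genes in rows, with filled points where the limma adjusted p is under 0.05. The 17 filled points are all in the CM KO panel and all left of 0, and no point is filled for EC KO or Total KO.

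Summed over the 32 genes, the level in EC KO was 238444 to 250329 (84.6% of Control) and that in Total KO 243366 to 271542 (88.5%). Per 1000 reads of the 12 cardiomyocyte markers, the members had 186.5 to 204.2 reads in Control, 148 to 154.7 in EC KO, 137 to 148.5 in CM KO and 149.8 to 172 in Total KO. On this scale all 9 knockout libraries lay below both Control libraries, and the CM KO and EC KO ranges overlapped. With every library rescaled to its cardiomyocyte marker sum, an alternative chosen after the values were seen, 11 genes fell in CM KO against Control (median of the 32 genes -0.32, of all genes 0.29), where 6.73% of all genes passed, 0.708% as lower and 6.02% as higher. CM KO then differed from EC KO in 9 genes, 3 lower and 6 higher (median of the 32 genes 0.0024, of all genes 0.43), where 45.9% of all genes passed, 1.62% as lower and 44.3% as higher, so the direction of that comparison depends on the scale. Total KO and CM KO differed in 7 genes, 5 higher and 2 lower in Total KO (median of the 32 genes 0.11, of all genes -0.42), where 39.6% of all genes passed, 1.35% as higher and 38.2% as lower. The genes lower in CM KO than in EC KO on this scale were Acadvl, Hadh and Ech1, and those higher were Cpt1a, Acadl, Decr2, Hsd17b4, Acaa1a and Abcd2 (all 9 named after their values were seen). In EC KO and in Total KO, 0 of the 32 passed against Control on this scale by limma (23 and 15 at an unadjusted p under 0.05; 0.146% and 0.192% of all genes passed), and 32 of 32 differences were negative in each. That scale also moved all genes down in both, with a median of -0.14 in EC KO and -0.11 in Total KO and 75.5% and 72.8% of all genes negative. The marker sum contains Myh7, which rose in CM KO.

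**Figure D3:**
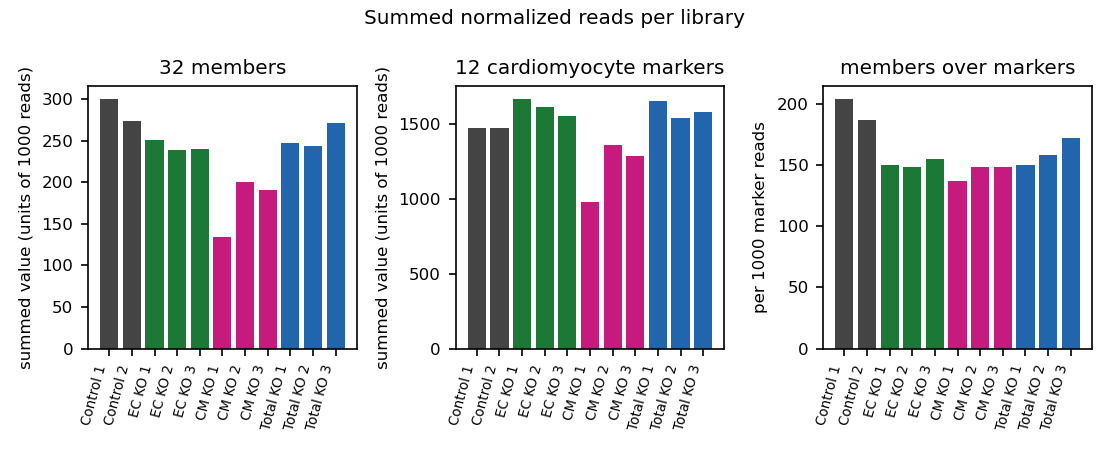
Summed normalized reads of the 32 genes (left, in units of 1000 reads), of 12 cardiomyocyte markers (middle, same unit) and their quotient (right, member reads per 1000 marker reads), 1 bar per library. CM KO is lowest for both sums, while in the quotient the 9 knockout libraries (137 to 172) lie below both Control libraries (186.5 and 204.2).

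The carnitine shuttle and its malonyl-CoA brake had 3 of 6 genes lower in CM KO than in Control, namely Cpt1b, Cpt2 and Crat. Cpt1b (chr15:89416405-89425863, minus strand) encodes the muscle form of the outer-membrane carnitine palmitoyltransferase. Its value was 330.3 and 384.7 in the Control libraries, 265.9, 332.8 and 308.6 in those of EC KO, 180.5, 253.2 and 247.8 in those of CM KO, and 367.9, 316.3 and 322 in those of Total KO. All 3 CM KO libraries lay below all others, and Cpt1b fell against Control (-0.66 ± 0.16, 63.5% of Control, adjusted p = 0.0341 by limma), with no call in EC KO (-0.24 ± 0.16) or Total KO (-0.09 ± 0.16). Of its transcript, 94.8% is repeated at 95% identity or more in the readthrough gene Gm44502, which the table lists at 0 under the symbol BC090627, so the level of Cpt1b is uncertain. Cpt2 (chr4:107903981-107923610, minus strand), the inner-membrane partner that re-forms acyl-CoA, read 6300 and 5852 in the Control libraries, 5372, 4521 and 4776 in those of EC KO, 2852, 4021 and 3814 in those of CM KO, and 4750, 5411 and 5287 in those of Total KO. Each CM KO library was again below the 8 others, and both EC KO and Total KO lay below Control without passing (-0.32 ± 0.14 and -0.24 ± 0.14). Cpt2 fell in CM KO (-0.78 ± 0.14, 58.6% of Control, adjusted p = 0.0123 by limma) and was higher in Total KO than in CM KO (0.54 ± 0.13, adjusted p = 0.0137 by limma).

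Of the rest of the shuttle, Crat, the carnitine acetyltransferase that buffers acetyl-CoA, fell in CM KO (-0.57 ± 0.15, adjusted p = 0.0422 by limma; 6959 to 9326 in CM KO against 10971 and 14216 in Control). That call held in 1 of 11 fits that each left out 1 library, the one without CM KO replicate 2, and the call of Cpt1b held in 6, while each of the 15 others in CM KO against Control held in 8 to 10. Cpt1a, the liver form of the outer-membrane enzyme, did not pass in any comparison. Its CM KO libraries (1770 to 2236, 96.4% of Control) overlapped the Control libraries (2045 and 2109). Every EC KO library (1367 to 1782, 77.9% of Control) and Total KO library (1209 to 1779, 74.4%) lay below both Control libraries. Cpt1a reads per Cpt1b read were 7.91 to 9.803 in CM KO and 3.287 to 6.409 in the other 8 libraries, ranges that do not overlap. The level of this ratio is as uncertain as that of Cpt1b, so it does not show which form is the more abundant. Slc22a5, the plasma-membrane carnitine carrier, and Mlycd, which removes the Cpt1 inhibitor malonyl-CoA, had differences of -0.58 ± 0.20 and -0.51 ± 0.15 in CM KO and passed in no comparison. In EC KO and Total KO the differences were -0.43 ± 0.20 and -0.48 ± 0.20 for Slc22a5 and -0.41 ± 0.15 and -0.36 ± 0.15 for Mlycd. Of the Slc22a5 transcript, 41.6% is repeated in Slc22a21.

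Acyl-CoA dehydrogenases catalyse the first step of each round, and 4 of 6 fell in CM KO. Acadvl (chr11:70010183-70015411, minus strand) acts on very long chains and read 23881 and 21604 in the Control libraries, 20477, 19746 and 21784 in those of EC KO, 9344, 15182 and 14312 in those of CM KO, and 21353, 19950 and 23463 in those of Total KO. The EC KO and Total KO values overlapped those of Control, and the CM KO values lay below all 8. The fall in CM KO was -0.84 ± 0.18 (56.9% of Control, adjusted p = 0.0228 by limma). Of the Acadvl transcript, 26.1% is shared with Dvl2 on the opposite strand, which read 79.4 to 143.9. Acadm (chr3:153922357-153944632, minus strand), the medium-chain enzyme, read 22402 and 19949 in the Control libraries, 19939, 18365 and 18979 in those of EC KO, 9776, 15171 and 14560 in those of CM KO, and 20340, 18400 and 20700 in those of Total KO. EC KO lay just below Control, Total KO overlapped both, and CM KO stood below all 8, so that Acadm fell there (-0.71 ± 0.17, 62.2% of Control, adjusted p = 0.0316 by limma). Acads (chr5:115110299-115119346, minus strand), the short-chain enzyme, read 3810 and 4803 in the Control libraries, 4085, 3862 and 3985 in those of EC KO, 2466, 3008 and 3111 in those of CM KO, and 4508, 4060 and 4760 in those of Total KO. It fell in CM KO (-0.59 ± 0.13, 66.4% of Control, adjusted p = 0.0233 by limma), while Total KO (0.05 ± 0.13) overlapped Control.

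Acad11 (chr9:104063377-104127725, plus strand), a further member of the family, had the lowest F test p of the 32 genes (adjusted p = 0.00518 by limma). It read 5494 and 5882 in the Control libraries, 4767, 4661 and 5198 in those of EC KO, 2428, 3459 and 3555 in those of CM KO, and 5000, 6071 and 5696 in those of Total KO. Total KO overlapped Control, EC KO lay below it without passing (-0.22 ± 0.15), and CM KO stood below all others. Acad11 fell in CM KO against Control (-0.87 ± 0.15, adjusted p = 0.0112 by limma), was lower in CM KO than in EC KO (-0.65 ± 0.13, adjusted p = 0.00689 by limma), and was higher in Total KO than in CM KO (0.84 ± 0.13, adjusted p = 0.00338 by limma). Acadl, the long-chain enzyme, read 15249 to 18615 in CM KO against 22574 and 23292 in Control and did not pass (-0.40 ± 0.12, adjusted p = 0.0796 by limma). Acad9, known for its part in the assembly of respiratory complex I, had the smallest difference of the 6 (-0.21 ± 0.11) and passed in no comparison. The 3 long- and medium-chain enzymes were alike in level per length in Control, with 11969 reads per kb of transcript for Acadl, 10490 for Acadvl and 10345 for Acadm, and CM KO had 9104, 5972 and 6434.

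**Figure D4:**
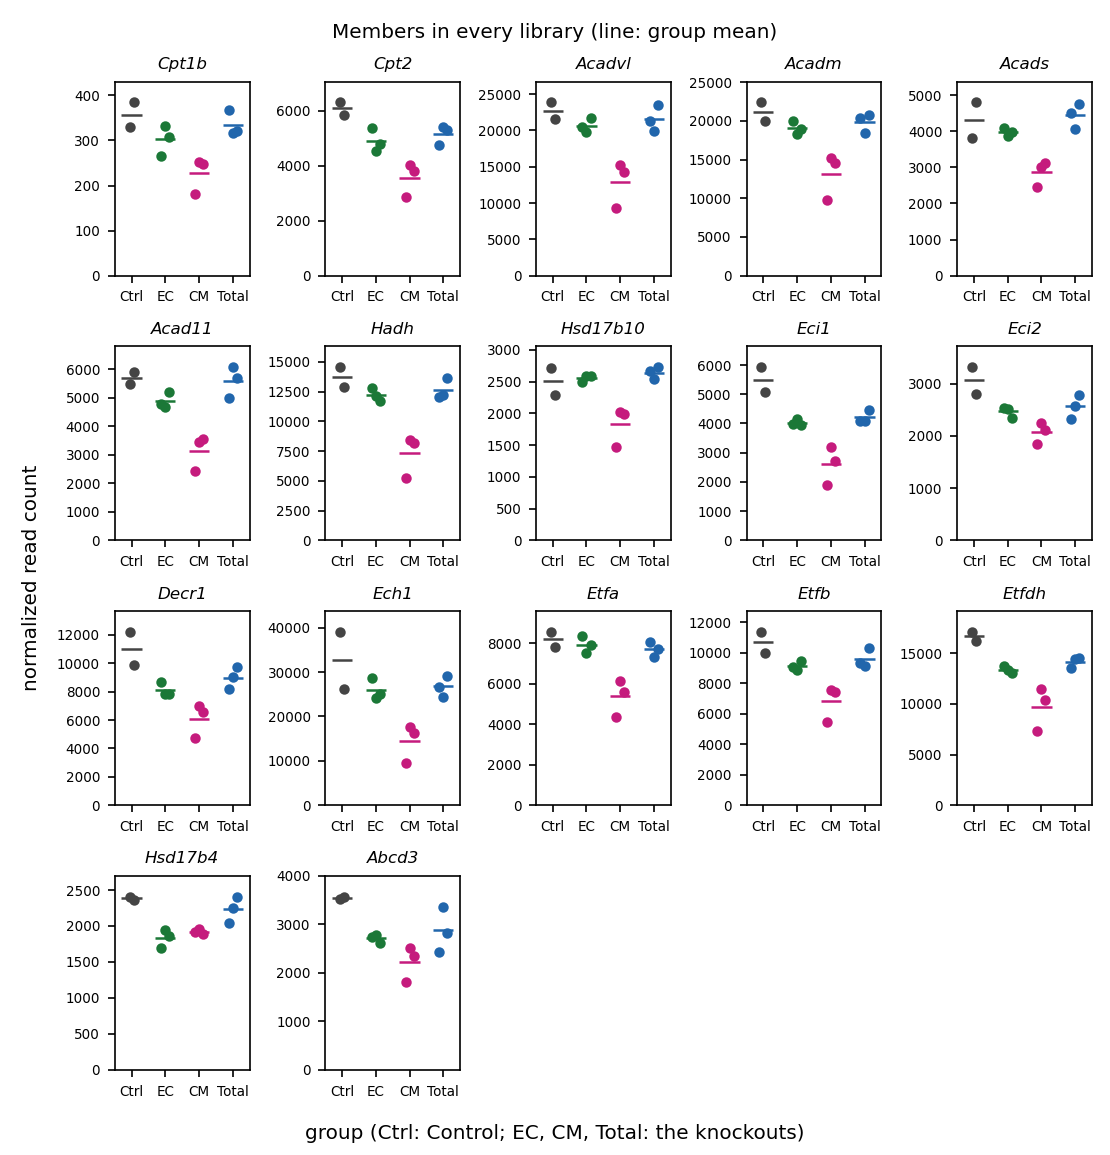
Normalized read count of 17 fatty acid oxidation genes in every library (points), by group, with the group mean as a line and each axis starting at 0. CM KO lies lowest in 15 panels with no overlap, while in Hsd17b4 it overlaps EC KO and in Abcd3 it overlaps Total KO.

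Of the hydratase, dehydrogenase and thiolase steps, 2 of 6 genes fell in CM KO against Control. Hadh (chr3:131233419-131272101, minus strand), the hydroxyacyl-CoA dehydrogenase of shorter chains, read 14566 and 12872 in the Control libraries, 12816, 12152 and 11732 in those of EC KO, 5237, 8467 and 8217 in those of CM KO, and 12072, 12251 and 13652 in those of Total KO. The highest CM KO value lay below the lowest of the others by more than the range within any group. Hadh fell in CM KO (-0.94 ± 0.18, 53.3% of Control, adjusted p = 0.0144 by limma) and was higher in Total KO than in CM KO (0.82 ± 0.16, adjusted p = 0.00656 by limma). Hsd17b10 (chrX:152001845-152004442, plus strand), a dehydrogenase of branched-chain substrates that is also a subunit of mitochondrial RNase P, read 2717 and 2293 in the Control libraries, 2501, 2591 and 2592 in those of EC KO, 1479, 2025 and 1992 in those of CM KO, and 2661, 2542 and 2731 in those of Total KO. Control, EC KO and Total KO overlapped, and CM KO lay below them. Hsd17b10 was lower in CM KO than in EC KO (-0.50 ± 0.12, adjusted p = 0.0119 by limma) and did not pass against Control (-0.46 ± 0.13, adjusted p = 0.0581 by limma).

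Acaa2, the thiolase that ends the cycle, fell in CM KO (7478 to 13764, against 18801 and 21039 in Control; -0.88 ± 0.21, adjusted p = 0.0324 by limma). Echs1, the hydratase of short chains, was lower in CM KO than in EC KO (-0.56 ± 0.14, adjusted p = 0.0148 by limma) and did not pass against Control (-0.46 ± 0.15). Hadha and Hadhb, whose promoters are shown above, missed the threshold in CM KO (-0.67 ± 0.18, adjusted p = 0.0525 by limma, and -0.51 ± 0.14, adjusted p = 0.0563 by limma) and passed in no comparison. Hadha reads per Hadhb read stayed between 7.502 and 8.875 over the 11 libraries. Since 69.7% of the Hadhb transcript is repeated in Gm13910 at 95% identity or more, the level of Hadhb is uncertain.

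Enzymes for double bonds had the largest median difference of the 6 roles in CM KO (-0.87), and 4 of 5 fell. Eci1 (chr17:24426641-24439348, plus strand), the mitochondrial enoyl-CoA isomerase, read 5930 and 5061 in the Control libraries, 3994, 4147 and 3947 in those of EC KO, 1909, 3187 and 2725 in those of CM KO, and 4091, 4084 and 4449 in those of Total KO. The groups formed 3 levels, with Control highest, EC KO and Total KO overlapping in the middle and CM KO lowest. Eci1 fell in CM KO (-1.10 ± 0.17, 47.4% of Control, adjusted p = 0.00669 by limma), while EC KO (-0.44 ± 0.17, adjusted p = 0.374 by limma) and Total KO (-0.38 ± 0.17) did not pass. Eci2 (chr13:34977748-35027096, minus strand), an isomerase found in mitochondria and peroxisomes, read 3320 and 2810 in the Control libraries, 2538, 2521 and 2349 in those of EC KO, 1838, 2249 and 2117 in those of CM KO, and 2328, 2581 and 2792 in those of Total KO. Its order was the same with narrower gaps, and it fell in CM KO (-0.57 ± 0.12, 67.5% of Control, adjusted p = 0.0206 by limma). Eci1 reads per Eci2 read were 1.039 to 1.417 in CM KO and 1.574 to 1.801 in the other 8 libraries.

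Decr1 (chr4:15917240-15945507, minus strand), the mitochondrial dienoyl-CoA reductase, read 12217 and 9849 in the Control libraries, 8695, 7861 and 7815 in those of EC KO, 4730, 6985 and 6568 in those of CM KO, and 8197, 9027 and 9759 in those of Total KO. Each knockout library lay below both Control libraries, and the fall in CM KO passed (-0.87 ± 0.16, 55.2% of Control, adjusted p = 0.0137 by limma), unlike the differences in EC KO (-0.43 ± 0.16, adjusted p = 0.365 by limma) and Total KO (-0.29 ± 0.16). Decr2, its peroxisomal counterpart, read 233.8 to 303.9 in CM KO, 183.4 and 281.8 in Control and 108.8 to 204 in EC KO, and passed in no comparison. Ech1 (chr7:28825217-28832247, plus strand), the dienoyl-CoA isomerase, had the highest level per length of the 32 genes in Control, 25785 reads per kb of transcript. It read 39082 and 26257 in the Control libraries, 28586, 24226 and 25142 in those of EC KO, 9604, 17676 and 16249 in those of CM KO, and 26741, 24399 and 29167 in those of Total KO. The 2 Control libraries differed more in Ech1 than the EC KO or Total KO libraries did among themselves, and all 3 CM KO libraries stood below the rest. Ech1 fell in CM KO (-1.19 ± 0.24, 44.4% of Control, adjusted p = 0.0178 by limma).

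All 3 genes of electron transfer fell in CM KO. Etfa (chr9:55454508-55512243, minus strand) and Etfb (chr7:43444083-43457800, plus strand) encode the subunits of the electron transfer flavoprotein, which takes electrons from the acyl-CoA dehydrogenases. Etfa read 8578 and 7845 in the Control libraries, 8368, 7509 and 7924 in those of EC KO, 4387, 6148 and 5595 in those of CM KO, and 8059, 7337 and 7737 in those of Total KO, and Etfb read 11372 and 9969 in the Control libraries, 9057, 8851 and 9441 in those of EC KO, 5479, 7586 and 7420 in those of CM KO, and 9318, 9131 and 10300 in those of Total KO. In both, CM KO lay below all 8 other libraries, and Etfa overlapped between the other 3 groups. Etfa fell by a difference of -0.62 ± 0.13 (65.5% of Control, adjusted p = 0.0219 by limma) and Etfb by -0.66 ± 0.14 (64.0%, adjusted p = 0.0219 by limma). Etfa reads per Etfb read were 0.751 to 0.924 over all 11 libraries. Gm45233, a gene model that overlaps Etfb on the same strand, holds 70.1% of the Etfb transcript, so the level of Etfb is uncertain. The symbol Gm45233 was not matched among the genes of the study. Etfdh (chr3:79603788-79629500, minus strand), the dehydrogenase that hands these electrons to ubiquinone, read 17118 and 16196 in the Control libraries, 13734, 13355 and 13037 in those of EC KO, 7332, 11488 and 10393 in those of CM KO, and 13509, 14476 and 14497 in those of Total KO. Every EC KO and Total KO library lay between Control and CM KO. Etfdh fell in CM KO (-0.80 ± 0.16, 58.5% of Control, adjusted p = 0.017 by limma) and did not pass in EC KO (-0.32 ± 0.16) or Total KO (-0.23 ± 0.16).

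Peroxisomal genes were mixed, and 1 of 6, Abcd3, fell in CM KO. Abcd3 (chr3:121758774-121815302, minus strand), a peroxisomal transporter of acyl-CoA, read 3530 and 3573 in the Control libraries, 2743, 2789 and 2613 in those of EC KO, 1821, 2504 and 2339 in those of CM KO, and 2440, 3357 and 2829 in those of Total KO. All 9 knockout libraries were below both Control libraries, and CM KO overlapped Total KO. The fall in CM KO was -0.69 ± 0.15 (62.5% of Control, adjusted p = 0.0219 by limma). Hsd17b4, the multifunctional enzyme of peroxisomal oxidation, read 2399 and 2365 in the Control libraries, 1692, 1945 and 1856 in those of EC KO, 1915, 1953 and 1884 in those of CM KO, and 2039, 2247 and 2409 in those of Total KO. EC KO and CM KO overlapped below Control, and Total KO reached the Control range. Hsd17b4 passed the F test (adjusted p = 0.0362 by limma; held in 2 of 11 fits with 1 library left out) but no single comparison (-0.38 ± 0.10 in EC KO, adjusted p = 0.147 by limma, and -0.31 ± 0.10 in CM KO, adjusted p = 0.0782 by limma).

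Ehhadh, the other peroxisomal bifunctional enzyme, read 1171 and 1439 in the Control libraries, 1051, 1453 and 748 in those of EC KO, 328.6, 460.4 and 642 in those of CM KO, and 441.7, 1321 and 1137 in those of Total KO. It spread widely within groups, and Total KO replicate 1 fell among the CM KO libraries. Ehhadh was lower in CM KO than in EC KO (-1.18 ± 0.37, adjusted p = 0.0405 by limma; held in 5 of 11 such fits) and missed the threshold against Control (-1.50 ± 0.41, adjusted p = 0.053 by limma). Abcd2, a second acyl-CoA transporter, was the 1 member higher in CM KO than in all 8 other libraries (9.05% of all genes showed that order). It read 92.5 and 117.8 in the Control libraries, 90.6, 101.2 and 65.4 in those of EC KO, 139.6, 130.2 and 130 in those of CM KO, and 80.2, 96.3 and 88.4 in those of Total KO. Its difference passed against EC KO (0.65 ± 0.18, adjusted p = 0.0231 by limma) and Total KO (Total KO minus CM KO -0.59 ± 0.18, adjusted p = 0.0386 by limma) but not against Control (0.35 ± 0.20, adjusted p = 0.345 by limma). Abcd2 also had the lowest level per length of the 32 genes in Control, 19 reads per kb of transcript. Acaa1a, a peroxisomal thiolase, differed least from Control in CM KO (-0.01 ± 0.10), and 81% of its transcript is repeated in Acaa1b. Pex11a, which acts in peroxisome division, passed in no comparison (-0.60 ± 0.19 in CM KO, -0.48 ± 0.19 in EC KO). In all, 22 of the 32 genes passed at least 1 of the 7 tests (68.8%, against 25.3% of all genes tested) and 10 passed none.

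Of the other pathway genes of the lists that are reported here, 45 were tested, and 8 fell and 0 rose in CM KO against Control (17.8%, against 2.4% of all genes as lower; median -0.28). Against EC KO, 13 of the 45 were lower and 2 higher in CM KO, where 8.72% of all genes were lower and 10.4% higher. In Total KO, 16 were higher and 0 lower than in CM KO (35.6%, against 8.2% of all genes in each direction). Differences on the scale of cardiomyocyte markers are not given for these genes or for the regulators below. Slc25a20, the carnitine-acylcarnitine carrier between both membrane enzymes, fell in CM KO (-0.76 ± 0.14, 59.7% of Control, adjusted p = 0.0126 by limma), as did the acyl-CoA synthetase Acsl1 (-0.59 ± 0.15, adjusted p = 0.0414 by limma) and the fatty acid transport protein Slc27a1 (-0.57 ± 0.13, adjusted p = 0.0251 by limma). Acsl4, another synthetase, was lower in CM KO than in EC KO (-0.37 ± 0.12, adjusted p = 0.0411 by limma).

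Bdh1, the dehydrogenase that opens ketone body use, read 2319 and 3378 in the Control libraries, 4640, 4574 and 5485 in those of EC KO, 1560, 2415 and 2370 in those of CM KO, and 6177, 5198 and 5312 in those of Total KO. EC KO and Total KO lay above Control without passing (0.80 ± 0.19, adjusted p = 0.126 by limma, and 0.99 ± 0.19, adjusted p = 0.0939 by limma), and CM KO was lower than EC KO (-1.23 ± 0.17, adjusted p = 0.00102 by limma). Acat1, the thiolase of acetoacetyl-CoA, fell in CM KO (-0.74 ± 0.18, adjusted p = 0.0341 by limma). Pcca, a subunit of propionyl-CoA carboxylase, also fell in CM KO (-0.63 ± 0.14, adjusted p = 0.0271 by limma), and its partner Pccb did not pass against Control (-0.39 ± 0.11, adjusted p = 0.0646 by limma).

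Acsm5, a medium-chain acyl-CoA synthetase, read 240.9 and 170 in the Control libraries, 145, 142.2 and 143.2 in those of EC KO, 8.49, 24.6 and 28.6 in those of CM KO, and 110.8, 179.9 and 173.5 in those of Total KO. In CM KO it lay below every other library and fell against Control (-3.40 ± 0.39, adjusted p = 0.0014 by limma). Nudt7, a CoA hydrolase of peroxisomes, fell in CM KO (-0.88 ± 0.17, adjusted p = 0.017 by limma). Lyrm5, a regulator of the electron transfer flavoprotein, and Acss1, the mitochondrial acetyl-CoA synthetase, were lower in CM KO than in EC KO (-0.48 ± 0.10, adjusted p = 0.00814 by limma, and -0.62 ± 0.14, adjusted p = 0.00953 by limma). Of 17 genes tested in the list of other peroxisomal genes, which does not hold Nudt7, 0 passed in CM KO against Control (limma, 5 at an unadjusted p under 0.05). Of all genes tested, 5.7% passed there, so 0 of 17 lies near that share. Against EC KO, 4 of the 17 passed (23.5%), also near the share of all genes (19.1%). Between CM KO and EC KO, Acox2, a branched-chain acyl-CoA oxidase (-1.05 ± 0.26), and Phyh, the phytanoyl-CoA hydroxylase (-0.40 ± 0.12), were lower in CM KO. The transporter gene Abcd4 (0.80 ± 0.17) and Hacl1, a lyase of alpha-oxidation (0.46 ± 0.12), were higher there (adjusted p = 0.0163 by limma, 0.0288, 0.00835 and 0.0196 in the order named).

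Among 16 regulators of the pathway, 0 passed in CM KO against Control by limma (5 at an unadjusted p under 0.05). Of all genes tested, 5.7% passed there, so 0 of 16 lies near that share. Compared with EC KO, 5 were lower in CM KO (31.2%, against 8.72% of all genes tested). Total KO had 6 higher than CM KO (37.5%, against 8.2%). Lpin1, a phosphatidate phosphatase and coactivator, read 2253 and 2339 in the Control libraries, 4127, 4659 and 4475 in those of EC KO, 2059, 2323 and 2662 in those of CM KO, and 3752, 3722 and 3247 in those of Total KO. EC KO and Total KO lay above all Control and CM KO libraries. Lpin1 rose in EC KO (0.94 ± 0.12, adjusted p = 0.00786 by limma), and its difference in Total KO did not pass (0.64 ± 0.12, adjusted p = 0.0801 by limma). Ppara, the fatty acid receptor that controls many of the 32 genes, read 1478 and 1508 in the Control libraries, 2586, 2392 and 2247 in those of EC KO, 661.9, 1464 and 1028 in those of CM KO, and 2802, 2218 and 2139 in those of Total KO. EC KO and Total KO lay above Control, and CM KO lay below it. Against Control, Ppara passed in no group (0.69 ± 0.24, -0.58 ± 0.24 and 0.67 ± 0.24 in EC KO, CM KO and Total KO), and it was lower in CM KO than in EC KO (-1.27 ± 0.21, adjusted p = 0.00241 by limma). The coactivator Ppargc1a (-0.88 ± 0.27, adjusted p = 0.0391 by limma) and the estrogen-related receptor Esrrg (-0.41 ± 0.12, adjusted p = 0.0382 by limma) were also lower in CM KO than in EC KO.

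**Figure D5:**
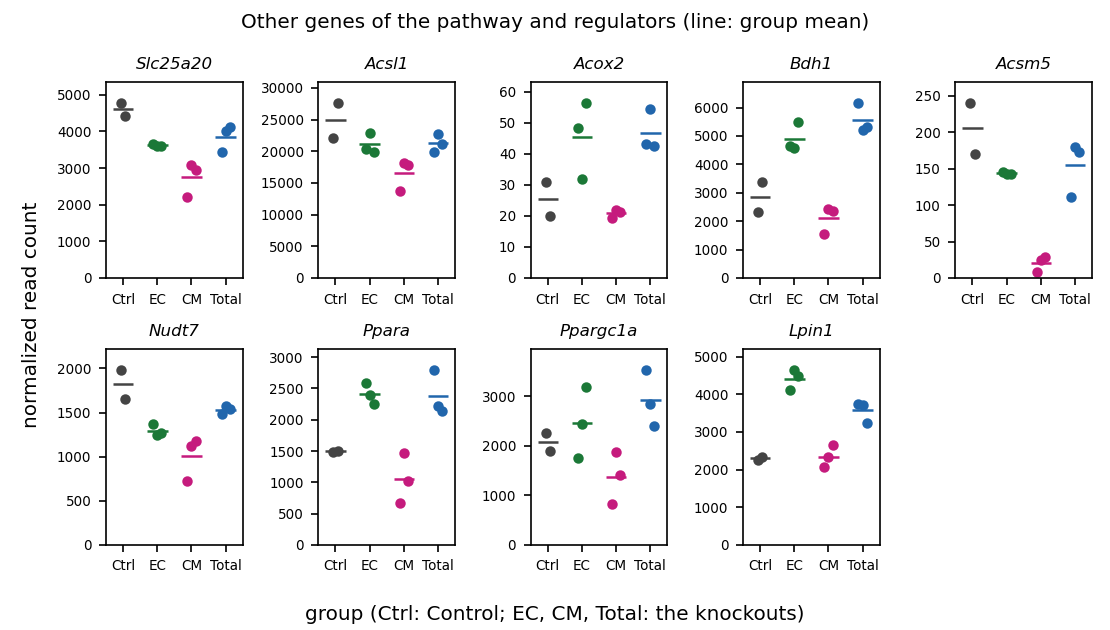
Normalized read count of 9 other pathway genes and regulators in every library (points), by group, with the group mean as a line and each axis starting at 0. Acsm5 is near 0 in CM KO, and Lpin1 and Ppara are highest in EC KO and Total KO.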

How the data were processed

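Per the labels' protocols, libraries were stranded total RNA libraries with ribosomal RNA removed. Per the submitters' processing notes, the tools were TopHat2, HTSeq 0.8.0 and DESeq2, whose version is written there as 3.5, and the build was mm10; annotation, counting mode and strand setting are not given in the sources used here. The deposited signal values are read counts per gene that the authors divided by 1 factor per library. Division by that factor's step gave whole reads, to within 0.05 of a read, for 100% of values in each library.

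Here, log2(value + 1) of 12976 genes, those whose mean was 10 or more, entered 1 limma fit (limma 3.58.1, R 4.3.3, trended prior) to all 11 libraries, with 6 comparisons and an F test over the 3 comparisons with Control. Since the values are normalized, edgeR 4.0.16 and DESeq2 1.42.0 on the recovered reads were alternatives. The others were pseudocounts of 0.5 and 5, no filter or a mean of at least 50, TMM rescaling, equal library totals, a fit to the 2 groups alone and each library left out. Added after the values were seen were the fit without the replicates 1 of the 3 knockouts and the scaling to 12 cardiomyocyte markers. The steps were tested on simulated data with the same set spread for every gene, so that test does not cover the spread of these libraries. The members and gene lists were chosen with earlier results of these data known. Values in every library are given for the 14 genes of lowest F test p and the 2 of lowest p in each role (17 genes), and for Ehhadh, Abcd2 and 4 pathway genes or regulators, chosen after their values were seen. Of other pathway genes and regulators, up to 4 per list that passed a comparison are named; 1 gene of the lists is not reported here and is left out of their counts. Gene positions and transcript lengths are from GENCODE M21 (GRCm38, the sequence of mm10). Transcripts were compared by BLAST (95% identity over at least 100 bases); 7 of the 32 genes have 20% or more of their transcript in another gene, and their levels are uncertain.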

Additional observations from a re-analysis of the deposited data

How the results depend on the processing

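No paired analysis was possible because no number is shared by libraries of different groups. The 2 or 3 libraries of each group and the 2268403 reads of EC KO replicate 1 limit the precision. With each library left out in turn, the number of the 32 genes called ranged from 12 to 22 in the F test (20 with all libraries), 0 to 20 in CM KO against Control (17), 9 to 19 in CM KO against EC KO (16) and 7 to 21 in Total KO against CM KO (18). It stayed at 0 in EC KO and Total KO against Control and in Total KO against EC KO. The F test called 13 when EC KO replicate 2 or CM KO replicate 3 was left out and 12 when Total KO replicate 3 was. Of the 17 calls of CM KO against Control, all 17 were lost without Control replicate 1 and 11 held in the other 10 fits. Of the calls of CM KO against EC KO and of Total KO against CM KO, 8 and 7 held in all 11 fits. Without the replicates 1 of the 3 knockouts together, 12 were called in the F test, 5 in CM KO against EC KO and 11 in Total KO against CM KO. By DESeq2, 1 was called in EC KO against Control and 26 in CM KO against Control. The fit to the 2 groups alone called 0 in CM KO against Control (26 at an unadjusted p under 0.05) and 10 in CM KO against EC KO. On the scale of cardiomyocyte markers, 11 were called in CM KO against Control, 9 in CM KO against EC KO (6 higher, 3 lower) and 7 in Total KO against CM KO, and the difference of Crat between CM KO and EC KO turned from -0.42 to 0.0104. Of 51 single-gene calls between groups, that was the only one to change sign under any alternative, but many no longer passed. In the same direction, 20 of the 51 passed on the scale of cardiomyocyte markers and 26 in the fit to the 2 groups alone. Of the 16 calls of CM KO against EC KO, 4 passed again on the scale of cardiomyocyte markers. Equal library totals shifted the median of all genes by 0.12 in CM KO against EC KO and by -0.14 in Total KO against CM KO. The cause of these changes was not tested. Shares of all genes that passed are given here only for the main fit and the scale of cardiomyocyte markers. The other counts therefore describe the members alone.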
